A study of Homo sapiens with 4 samples.

Results

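The messages of 10 genes of prostaglandin synthesis, signalling and breakdown were measured in the human lung carcinoma line A549, with and without induction of A-FOS. The genes were taken by symbol: PLA2G4A, PTGS1, PTGS2, PTGES, PTGES2, PTGES3, HPGD, PTGR1, PTGR2 and PTGER4. All 10 were found among the 58051 Ensembl genes listed for each library, and all 10 were among the 18046 genes tested. In the first group, plus Dox (n = 2), cells received doxycycline at 1 µg/mL, and the second group, minus Dox (n = 2), was left untreated. All 4 libraries come from A549 cells in which piggyBac had placed a doxycycline-inducible A-FOS gene at random sites, although the titles speak of a knock-in. Whether the cells were 1 clone or a pool, how long doxycycline was present and whether replicates are separate cultures is not given in the sources used here. Doxycycline and A-FOS go together in these groups and cannot be told apart.

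Prostaglandins are short-range lipid signals made from arachidonic acid. A phospholipase frees the acid from membranes, a cyclooxygenase turns it into the unstable intermediate PGH2, and terminal synthases turn PGH2 into PGE2 and its relatives. PGE2 acts on G-protein-coupled receptors and is inactivated by oxidation of its 15-hydroxyl group followed by reduction of a double bond. The pathway is active in lung epithelium, where cyclooxygenase-2 and the inducible PGE synthase are classic cytokine-responsive genes. A-FOS is a dominant-negative FOS that pairs with JUN proteins and holds them off the DNA sites of AP-1, the transcription factor they form.

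The stretches before the transcription starts of PTGES, PTGS2 and PTGS1 are shown because of their changes. PTGES changed most among the 10 genes. The cyclooxygenases changed in opposite directions, though the fall of PTGS2 did not pass the threshold in every fit described below. Each stretch runs 5′ to 3′ over the 250 bases before a RefSeq start (GRCh38.p14). Capitals mark matches on either strand to any of 6 short motifs. AP-1 sites were searched as TGANTCA, where N is any base. The core of the cAMP response element (CRE) was searched as TGACG, and the E-box, bound by helix-loop-helix factors, as CACGTG. The TATA box was searched as TATAAA. For FOXA factors, the forkhead proteins that the series is about, the letters were TGTTTAC. The NF-kB motif, of 10 letters, is named only.
PTGES, chr9:129753043-129753292, minus strand: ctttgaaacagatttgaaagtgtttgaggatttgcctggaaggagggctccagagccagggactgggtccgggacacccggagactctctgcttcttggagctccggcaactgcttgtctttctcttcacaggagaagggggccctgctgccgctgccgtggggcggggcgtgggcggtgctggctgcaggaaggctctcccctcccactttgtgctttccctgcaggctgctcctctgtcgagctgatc
PTGS2, chr1:186680424-186680673, minus strand: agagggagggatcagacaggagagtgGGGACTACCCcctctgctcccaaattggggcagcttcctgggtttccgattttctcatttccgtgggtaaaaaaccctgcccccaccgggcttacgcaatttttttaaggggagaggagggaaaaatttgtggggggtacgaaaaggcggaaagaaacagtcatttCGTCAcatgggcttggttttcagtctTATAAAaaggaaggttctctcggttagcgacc
PTGS1, chr9:122370283-122370532, plus strand, the more upstream of its 2 starts: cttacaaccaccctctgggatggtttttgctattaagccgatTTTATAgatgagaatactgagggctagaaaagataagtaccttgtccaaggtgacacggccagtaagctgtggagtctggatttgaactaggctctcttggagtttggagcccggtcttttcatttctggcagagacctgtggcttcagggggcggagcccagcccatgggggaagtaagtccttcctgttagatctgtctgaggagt
The PTGES window held none of the 6 motifs. The PTGS2 window held an NF-kB match beginning at −224, a CRE core at −58 and a TATA box at −32, counted from −1 at the base before the start, and the PTGS1 window held a TATA box match on the opposite strand at −208. Over the 15 windows of the 10 genes, the AP-1 and FOXA letters were found in 0, where 6.57% and 2.98% of all 35116 windows of this length hold them. The CRE core was found in windows of 4 of the 10 genes (PTGS2, HPGD, PTGES3 and PTGR2) and in windows of 24.9% of all 27305 genes with a window. The NF-kB letters were found in windows of PTGS2 and PTGER4 and of 7.69% of all these genes. A match is a description of the letters, and distant enhancers lie outside these windows.

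Total counts were 32727539 and 31104964 in plus Dox and 36377784 and 40526912 in minus Dox. FOS, whose reads may include those of the integrated A-FOS, had 48.6 and 50.9 CPM in plus Dox and 1.36 and 1.52 CPM in minus Dox. JUN had 15.4 and 14.2 CPM in plus Dox and 49.4 and 53.0 CPM in minus Dox, a log2 fold change of −1.79. CPM here are counts relative to the library size after TMM scaling, which adjusts each library size to the bulk of genes. Of 10 lung epithelial markers 6 were tested, with 5 lower by edgeR, their summed level was 6288 to 6483 CPM in plus Dox and 12614 to 12954 CPM in minus Dox, and SFTPA1 was at 0 in every library. NKX2-1 and SFTPC, which define lung and alveolar epithelium, averaged 0.115 and 0.131 CPM in plus Dox and 0 and 0.0829 CPM in minus Dox and did not pass the count filter. SFTPB, with 1 and 1 counts in plus Dox and 6 and 3 counts in minus Dox, did not pass it either. Summed fibroblast markers (6 of 8 tested) were 82.5 to 85.8 CPM in plus Dox and 68.9 to 76.6 CPM in minus Dox, with THY1 higher (42.6 and 43.9 CPM in plus Dox, 25.3 and 26.7 CPM in minus Dox) and COL1A1 lower (34.3 and 35.7 CPM in plus Dox, 36.3 and 43.7 CPM in minus Dox). Summed leukocyte markers (2 of 8 tested) were 3.99 to 4.51 CPM in plus Dox and 5.26 to 5.52 CPM in minus Dox, with 1 lower and CD3E and TPSAB1 at 0. Summed endothelial markers (4 of 6 tested) were 1.37 to 1.56 CPM in plus Dox and 2.10 to 2.43 CPM in minus Dox, with 2 lower and VWF higher (17 and 22 counts in plus Dox, 3 and 0 counts in minus Dox). Their part in the results was not tested.

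With doxycycline, the inducible PGE synthase PTGES fell 4.46-fold, the prostaglandin reductase PTGR1 1.88-fold, the receptor PTGER4 1.80-fold and the inactivating dehydrogenase HPGD 1.64-fold. The cyclooxygenase PTGS1 rose 1.71-fold and PTGES3 rose 1.27-fold. Of the 10 genes 7 were lower and 2 higher in plus Dox, and PTGR2 did not pass, in the quasi-likelihood F-test of edgeR, Benjamini-Hochberg adjusted over 18046 genes, at a threshold of 0.05. In this comparison 56.9% of all tested genes passed, 28.4% as higher and 28.4% as lower. The groups did not overlap in 9 of the 10 genes, against 77% of all tested genes: plus Dox was above in 2 of them (38.7% of all tested genes) and below in 7 (38.3%). The median log2 fold change of the 10 genes was −0.38, against 0.00 over all tested genes. The calls of PTGS1, PTGES, PTGES2, PTGES3, PTGR1 and HPGD held under all 11 alternatives, whereas 4 of the 10 genes were lower in DESeq2 (21.1% of all genes it tested) and 4 without minus Dox replicate 1 (27.2%). With unscaled library sizes, where the median over all tested genes was 0.22, 5 were lower (16.2% of all tested genes) and 3 higher (43.6%).

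**Figure D1:**
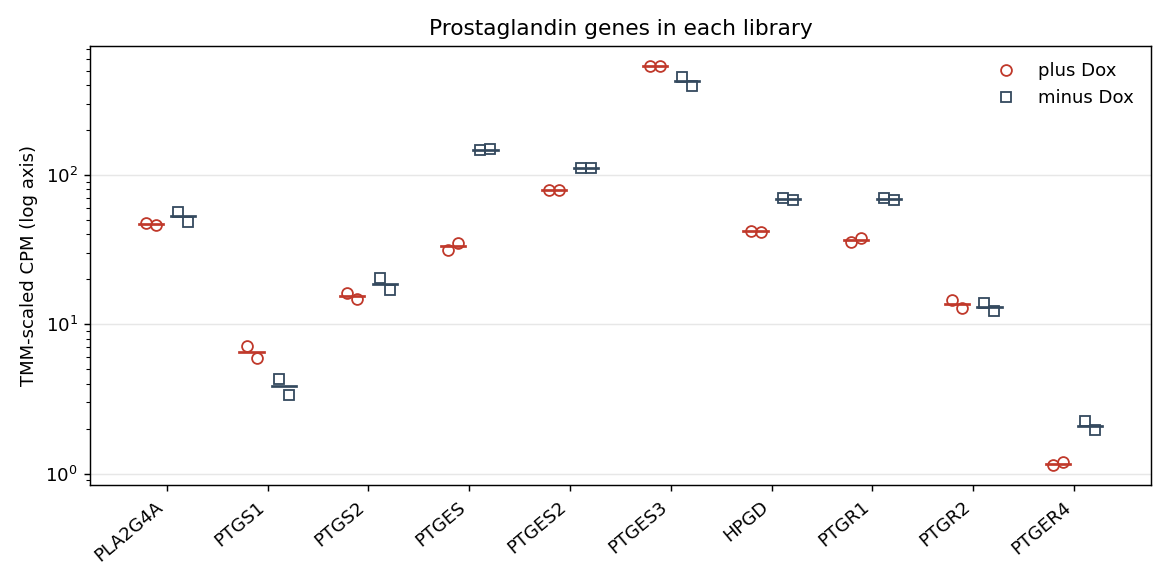
TMM-scaled CPM (log axis) of the 10 genes, with a circle for each plus Dox library, a square for each minus Dox library and a bar at each group's mean (n = 2). PTGES lies at 31.4 and 35.1 CPM in plus Dox, below both minus Dox libraries at 148 CPM, while the PTGR2 groups overlap.

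For the supply of arachidonic acid, which was not itself measured, the message of PLA2G4A was taken first. PLA2G4A is the cytosolic phospholipase A2 that cuts arachidonate from membrane phospholipids (ENSG00000116711, chromosome 1, 186828953 to 186988981 in hg38). It had 47.6 and 46.3 CPM in plus Dox, against 56.7 and 48.8 CPM in minus Dox. The groups did not overlap, but minus Dox replicate 2 lay near the plus Dox libraries. The log2 fold change was −0.17 ± 0.06 (SE), and edgeR's adjusted p was 0.0268. This call did not hold without minus Dox replicate 1 (−0.066, adjusted p 0.420 in edgeR), without plus Dox replicate 1 (−0.19, 0.0742), without plus Dox replicate 2 (−0.15, 0.167) or in DESeq2 (−0.17, 0.120), and with unscaled library sizes the value was 0.049. After correction for GC content, length and abundance, which takes out the trend of fold change on these properties, it was −0.36 (edgeR adjusted p = 1.11e-05).

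Among 20 further genes of arachidonate release 13 were tested, of which 4 were higher and 4 lower, with a median log2 fold change of −0.05. The background for this list and the later ones is 28.4% higher and 28.4% lower among all tested genes. MGLL, the monoacylglycerol lipase that frees arachidonic acid from 2-arachidonoylglycerol, fell to 82.1 ± 2.22 CPM in plus Dox, against 294 ± 3.55 CPM in minus Dox (SD, n = 2), a log2 change of −1.84 ± 0.04 (SE; edgeR adjusted p = 6.87e-29). DAGLB, a diacylglycerol lipase that makes 2-arachidonoylglycerol, fell by 0.82 and ABHD12, which also hydrolyses it, fell by 0.45 on the log2 scale. The phospholipase PLA2G12A rose to 28.1 CPM in plus Dox, against 16.7 CPM in minus Dox. In the cells' handling of the free acid, 8 of 12 tested genes of acyl-CoA synthesis, re-esterification and desaturation were higher and 3 lower (median 0.24), and 5 were higher and 4 lower after the GC correction. Among the higher genes, LPCAT3 has an uncertain count, as 65.6% of its exon bases are shared with another gene. ACSL6, also higher, had 17 and 13 counts in plus Dox, against 0 and 0 counts in minus Dox. The lysophospholipid acyltransferase LPCAT2 rose to 76.0 CPM in plus Dox, against 39.6 CPM in minus Dox, and the acyl-CoA synthetase ACSL1 rose to 52.3 CPM in plus Dox, against 36.1 CPM in minus Dox. FADS1 and FADS2, the desaturases that make arachidonic acid from linoleic acid, fell by 0.63 and 0.71 on the log2 scale.

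The cyclooxygenases moved in opposite directions. PTGS1, the cyclooxygenase-1 present in most tissues (ENSG00000095303, chromosome 9, 122370530 to 122395703), had 7.18 and 5.90 CPM in plus Dox, against 4.29 and 3.38 CPM in minus Dox. Both plus Dox libraries were above both minus Dox libraries, with a log2 change of 0.78 ± 0.16 (SE; edgeR adjusted p = 7.90e-05). PTGS2, the inducible cyclooxygenase-2 (ENSG00000073756, chromosome 1, 186671791 to 186680427), had 16.1 and 14.8 CPM in plus Dox, against 20.3 and 17.1 CPM in minus Dox. The gap between the nearest libraries of the groups was smaller than the gap within plus Dox. Its log2 fold change was −0.27 ± 0.09 (SE), with an edgeR adjusted p of 0.0130. That call did not hold without minus Dox replicate 1 (−0.16, adjusted p 0.206 in edgeR), without plus Dox replicate 2 (−0.22, 0.138), in DESeq2 (−0.28, 0.108) or with unscaled library sizes (−0.057, edgeR 0.626), and after the GC correction the value was −0.80 (edgeR 6.08e-09).

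Within a library the balance of both cyclooxygenases does not depend on the scaling. Per kilobase of exon, PTGS2 made up 71.1% and 73.4% of the PTGS1 and PTGS2 sum in plus Dox, against 83.9% and 84.7% in minus Dox. Both plus Dox libraries had the lower share. The sum itself was 4.29 and 3.83 CPM per kb in plus Dox and 4.60 and 3.83 CPM per kb in minus Dox, so the groups overlapped. PTGS2 and PLA2G4A are neighbours among the 10 genes, 148.5 kb apart on chromosome 1 and read away from each other.

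Among the 10 genes the largest change was in PTGES, the microsomal PGE synthase-1 that is coupled to cyclooxygenase-2 (ENSG00000148344, chromosome 9, 129738331 to 129753047). It had 31.4 and 35.1 CPM in plus Dox, against 148 and 148 CPM in minus Dox, from 1107 and 1176 against 5002 and 5563 counts. The groups were far apart compared with the spread inside either. The log2 fold change was −2.16 ± 0.05 (SE), edgeR's adjusted p was 8.63e-28, and 1.55% of all tested genes had a lower value. Over the alternatives it lay between −2.24 and −1.82.

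PTGES2, the membrane-associated PGE synthase-2, whose role in PGE2 synthesis in vivo is debated (ENSG00000148334, chromosome 9, 128120693 to 128128462), had 79.0 and 79.1 CPM in plus Dox, against 111 and 111 CPM in minus Dox. It was lower in both plus Dox libraries, with a log2 change of −0.49 ± 0.05 (SE; edgeR adjusted p = 3.89e-11). With unscaled library sizes the value was −0.28, so the size of this fall depends on the scaling. The same holds for PTGES (−1.94), HPGD (−0.50) and PTGR1 (−0.70) in that fit. PTGES3, the cytosolic PGE synthase also known as p23, a co-chaperone of HSP90 (ENSG00000110958, chromosome 12, 56663341 to 56688408), had 538 and 536 CPM in plus Dox, against 452 and 394 CPM in minus Dox. It was higher in both plus Dox libraries by 0.34 on the log2 scale (SE 0.04, edgeR adjusted p = 9.38e-09), by 0.56 with unscaled library sizes and by 0.64 after the GC correction. Of its processed pseudogenes, PTGES3P1 had 84 and 75 counts in plus Dox and 125 and 114 counts in minus Dox, against at least 14779 counts of PTGES3 in every library, and reads that match several copies may have been dropped before counting.

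The mix of PGE synthase messages changed with these 3 genes. Per kilobase of exon, PTGES was 8.25% and 9.14% of the sum of PTGES, PTGES2 and PTGES3 in plus Dox, against 31.5% and 33.9% in minus Dox. Between the membrane-bound forms, PTGES was 38.9% and 41.5% of the sum of PTGES and PTGES2 in plus Dox, against 68.0% and 68.2% in minus Dox. PTGES thus lay below PTGES2 in plus Dox and above it in minus Dox.

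**Figure D2:**
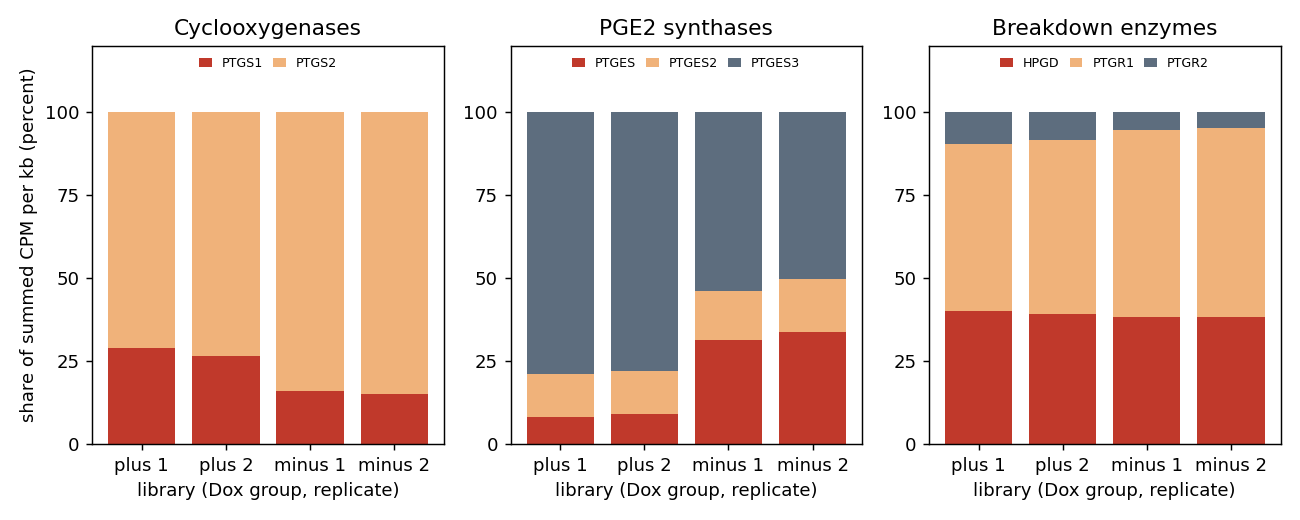
Shares of summed CPM per kb of exon (percent) within each library for cyclooxygenases, PGE synthases and breakdown enzymes, with plus Dox libraries left of minus Dox libraries. The PTGES share is 8.25% and 9.14% in plus Dox against 31.5% and 33.9% in minus Dox, and the HPGD share stays between 38.2% and 40.2%.

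Of the 3 breakdown enzymes among the 10 genes, HPGD and PTGR1 were lower in plus Dox and PTGR2 did not pass. HPGD, the 15-hydroxyprostaglandin dehydrogenase that takes the first inactivating step (ENSG00000164120, chromosome 4, 174490177 to 174523154), had 42.2 and 41.7 CPM in plus Dox, against 70.0 and 67.5 CPM in minus Dox. Both groups were tight and well apart, with a log2 change of −0.71 ± 0.06 (SE; edgeR adjusted p = 3.59e-13). PTGR1, prostaglandin reductase 1, which reduces the 13,14 double bond of the oxidised product and also acts on leukotriene B4 (ENSG00000106853, chromosome 9, 111549722 to 111599893), had 35.8 and 37.8 CPM in plus Dox, against 70.6 and 68.0 CPM in minus Dox. Its log2 fold change was −0.91 ± 0.06 (SE), with an edgeR adjusted p of 1.12e-15. PTGR2, prostaglandin reductase 2, which acts on the same kind of product (ENSG00000140043, chromosome 14, 73851844 to 73886827), had 14.6 and 12.8 CPM in plus Dox, against 13.9 and 12.2 CPM in minus Dox.

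The PTGR2 groups overlapped, with a log2 change of 0.075 ± 0.10 (SE; edgeR adjusted p = 0.553). Its count is uncertain, because 32.9% of its exon bases in GENCODE 29 are shared with other genes, and 18.4% with a gene on the opposite strand. Its call depends on the fit: it was higher with unscaled library sizes (0.29, edgeR adjusted p 0.0132) and lower after the GC correction (−0.49, edgeR adjusted p 1.11e-04). HPGD was 40.2% and 39.3% of the per-kilobase sum of the 3 breakdown genes in plus Dox, against 38.2% and 38.4% in minus Dox. Of 9 other enzymes that reduce or oxidise prostaglandins and related fatty acids 6 were higher and 0 lower by the edgeR test (median 0.31). Among all tested genes 28.4% were higher and 28.4% lower. At an unadjusted p under 0.05 and in DESeq2 the count of lower genes was also 0, though 1 was lower after the GC correction. Over all tested genes 5457 of 18046 were lower at that unadjusted p in edgeR, and 21.1% were lower in DESeq2. CYP4F11, CYP4F3 and CYP4F12, cytochromes of the omega-hydroxylase family, rose by 1.21, 0.68 and 0.79 on the log2 scale. These are close paralogs between which reads may have been split. HSD17B4, a peroxisomal beta-oxidation enzyme, rose by 0.20, but did not pass after the GC correction (0.013, edgeR adjusted p 0.813).

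**Figure D3:**
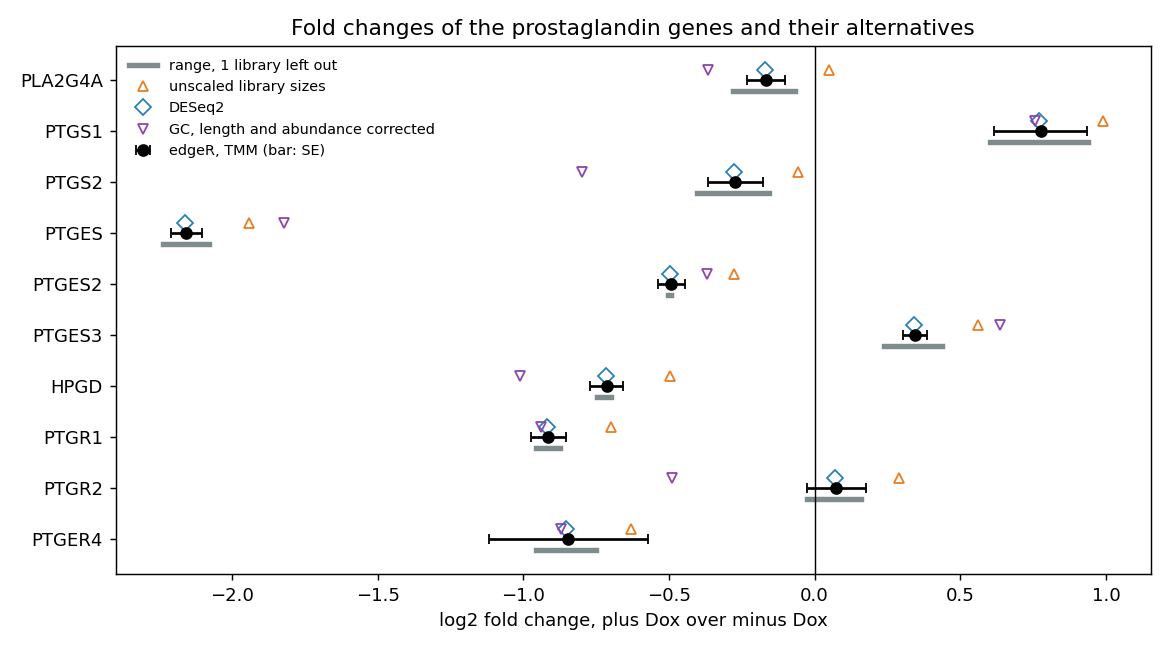
Log2 fold changes of plus Dox over minus Dox for the 10 genes: black points with SE bars are edgeR with TMM, grey bars the range when a single library was left out, and open symbols 3 other fits. PTGES stays between −2.24 and −1.82, while PLA2G4A, PTGS2 and PTGR2 come close to 0 or cross it.

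PTGER4, the EP4 receptor that raises cAMP on binding PGE2 (ENSG00000171522, chromosome 5, 40679498 to 40693735), was the least abundant of the 10 genes per kilobase of exon. It had 40 and 40 counts in plus Dox, against 76 and 73 counts in minus Dox, which is 1.14 and 1.19 CPM against 2.25 and 1.95 CPM. Both plus Dox libraries were lower, with a log2 change of −0.84 ± 0.27 (SE; edgeR adjusted p = 0.00808). The call did not hold in DESeq2 (−0.85, adjusted p 0.0978) or without minus Dox replicate 1 (−0.75, edgeR adjusted p 0.0539).

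Of the 10 other genes listed as prostanoid receptors or their partners 6 were tested, with 2 lower and 0 higher by edgeR (0 also in DESeq2 and at an unadjusted p under 0.05, but 1 with unscaled library sizes). PPARG, a nuclear receptor for which cyclopentenone prostaglandins are ligands, fell to 25.9 ± 1.28 CPM in plus Dox, against 59.9 ± 1.12 CPM in minus Dox (SD, n = 2), a log2 fold change of −1.21. PTGFRN, a membrane protein that hinders ligand binding to the PGF2alpha receptor, had a log2 fold change of −0.19 and failed the threshold with unscaled library sizes (0.026, edgeR adjusted p 0.717), after the GC correction (−0.069, 0.308) and without plus Dox replicate 1 (−0.14, 0.180). The thromboxane receptor TBXA2R had 2.57 CPM in plus Dox and 1.88 CPM in minus Dox, and the EP2 receptor PTGER2 had 0.556 CPM in plus Dox and 0.901 CPM in minus Dox. Neither passed, with edgeR adjusted p-values of 0.0930 and 0.167.

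Downstream of EP receptors, 11 of 18 genes of G-protein and cAMP signalling were higher and 3 lower, with a median log2 fold change of 0.29. Of all tested genes 28.4% were higher and 28.4% lower, with a median of 0.00. Of the 3 lower genes, ADCY7 and ADCY3 have uncertain counts, as 41.6% and 26.0% of their exon bases are shared with other genes. PRKAR1A, a regulatory subunit of protein kinase A, rose to 499 ± 1.87 CPM in plus Dox, against 300 ± 10.4 CPM in minus Dox (SD, n = 2). PRKACA, a catalytic subunit, rose by 0.55 and CREM, a cAMP-responsive transcription factor, rose by 0.74 on the log2 scale. GNAI1, an inhibitory G-protein subunit that lowers cAMP, rose by 1.05. With unscaled library sizes 14 were higher and 1 lower, against 43.6% and 16.2% of all tested genes.

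Per kilobase of exon the 10 genes spanned a wide range in both groups. In plus Dox, PTGES3 was highest at 158 ± 0.328 CPM per kb, followed by PTGES2 at 26.0 ± 0.0127, PTGES at 17.5 ± 1.35 and PLA2G4A at 16.3 ± 0.322 CPM per kb (SD, n = 2). PTGES and PLA2G4A differed by less than the SD of PTGES. In minus Dox, PTGES3 was also highest at 124 ± 12.2 CPM per kb, followed by PTGES at 78.1 ± 0.168 and PTGES2 next at 36.6 ± 0.119 CPM per kb (SD, n = 2). PTGR1 and PLA2G4A overlapped there, at 18.4 ± 0.480 and 18.4 ± 1.95 CPM per kb. HPGD, PTGS2, PTGR2, PTGS1 and PTGER4 came last in this order in both groups, from 7.58 down to 0.294 CPM per kb in plus Dox and from 12.4 down to 0.529 CPM per kb in minus Dox. PTGS1, in spite of its rise, lay above only 32.4% of tested genes per kilobase in plus Dox and 24.9% in minus Dox, whereas PTGES lay above 85.0% in plus Dox and 97.3% in minus Dox.

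In the other prostanoid branches, of 8 further synthases 5 were tested and 3 were lower. AKR1B1 and AKR1C3, aldo-keto reductases that make PGF2alpha among other reactions, had 1972 ± 73.9 and 797 ± 9.19 CPM in plus Dox, against 8504 ± 10.7 and 1667 ± 2.96 CPM in minus Dox (SD, n = 2), though reads may be split with close paralogs. TBXAS1, the thromboxane synthase, fell to 9.60 CPM in plus Dox, against 14.1 CPM in minus Dox, and PRXL2B, a prostamide and PGF synthase, did not pass (−0.30, edgeR adjusted p 0.0859). The PGD and prostacyclin synthases PTGDS, HPGDS and PTGIS did not pass the count filter, and HPGDS had no count in any library. Of 6 transporters 5 were tested, with 3 lower and 1 higher. The prostaglandin exporter ABCC4 fell to 50.3 CPM in plus Dox, against 86.7 CPM in minus Dox. ABCC1, which exports leukotriene C4 and prostaglandin conjugates, fell by 0.73 and the organic anion carrier SLCO4A1 fell by 0.57 on the log2 scale, while the organic anion carrier SLCO2B1 rose by 1.42. SLCO2A1, the main prostaglandin uptake carrier, did not pass the count filter.

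**Figure D4:**
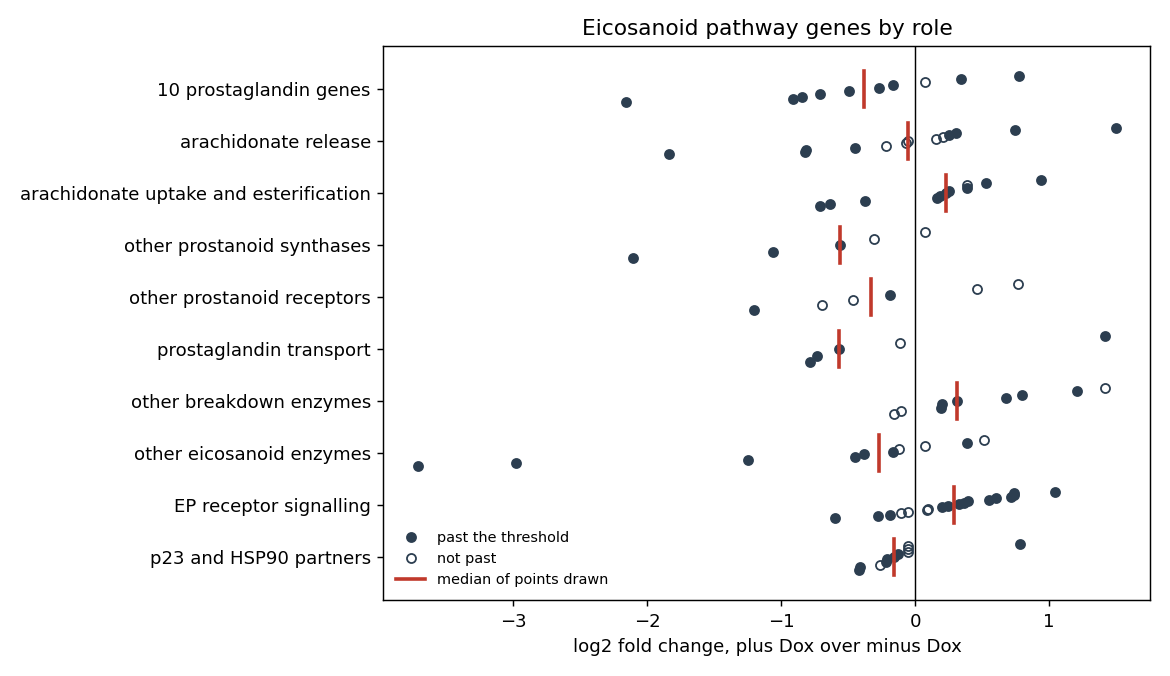
Log2 fold changes of plus Dox over minus Dox for tested genes of each role, filled where edgeR's adjusted p was under 0.05, with a bar at each median. ACSL6, with no count in minus Dox, is left out, and PTGES at −2.16 is the lowest of the 10 prostaglandin genes.

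Other groups border on the pathway. Of 15 other eicosanoid enzymes 10 were tested, with 6 lower and 1 higher (median −0.27). ALOX5AP, which presents arachidonate to 5-lipoxygenase, had 0.132 CPM in plus Dox and 1.76 CPM in minus Dox, and the epidermal lipoxygenase ALOXE3 had 1.25 CPM in plus Dox and 2.97 CPM in minus Dox. Both were lower, with edgeR adjusted p-values of 1.66e-08 and 3.67e-05. GPX4, which reduces lipid peroxides, fell by 0.45, and the cytochrome CYP1B1 rose by 0.38 on the log2 scale. Among 11 partners of p23 and HSP90, 6 were lower and 1 higher, the opposite of PTGES3 itself. HSP90AB1, HSPA8 and HSP90AA1 had log2 fold changes of −0.41, −0.42 and −0.22, and the immunophilin FKBP5 rose by 0.79. That balance depended on the processing. With unscaled library sizes 5 were higher and 2 lower, against 43.6% and 16.2% of all tested genes. After the GC correction 9 were higher and 0 lower, against 5113 and 4310 of 17974 genes. The corrected values were 0.35, 0.34 and 0.57 for HSP90AB1, HSPA8 and HSP90AA1.

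The genes whose 4 log2 CPM values lay nearest to those of PTGES, by Euclidean distance over the 4 libraries, were F2RL1, PLCE1 and CCDC80, at distances of 0.198, 0.306 and 0.345. F2RL1, the protease-activated receptor 2, had 34.6 and 34.9 CPM in plus Dox, against 136 and 140 CPM in minus Dox. PLCE1, a phospholipase C, and CCDC80, a secreted matrix protein, had log2 fold changes of −2.03 and −2.24. Fewer cells expressing a gene and less of its RNA per cell cannot be told apart in any of these bulk libraries.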

How the data were processed

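PolyA RNA of 4 libraries was counted by the submitters; what they deposited are unnormalized whole-number counts for Ensembl gene IDs, a file for each library, per the file headers and values. The submitters' processing notes name DRAGEN, cutadapt 4.0, STAR 2.7.10b, featureCounts 2.0.3, DESeq2 2.11.40.7 and build hg38, with no role or order; neither an annotation release nor the counting's strand setting is stated in the sources used here. Per the labels' protocols the library kit was stranded.

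Everything else was computed here in R 4.3.3. Genes passing edgeR 4.0.16's filterByExpr were scaled by TMM (factors 1.08 and 1.08 in plus Dox, 0.930 and 0.926 in minus Dox) and tested with its quasi-likelihood test of group, adjusted over all tested genes. SE is the log2 fold change divided by the root of its F statistic. Lengths, overlaps and positions come from GENCODE 29 (hg38), promoter letters from RefSeq (GRCh38.p14), symbols from a table of gene names. GC and length were known for 99.6% of tested genes. Replicates of a group differed beyond counting noise (chi-square per degree of freedom 2.25 in plus Dox, 4.13 in minus Dox). Where a library shows 0, up to 3 counts remain possible (0.0800 to 0.0894 CPM), covering counting error only. Because separate cultures are not stated, p-values reflect the spread of these samples alone, possibly a technical one.

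The test was first tried on simulated data with known changes, in 50 genes for each size of change. It recovered 52% of 1.2-fold, 62% of 1.5-fold, 84% of 2-fold and 100% of 4-fold changes. There were 11 false calls among the unchanged genes. Many changes as small as 1.2-fold or 1.5-fold were thus missed. The genes and lists were chosen with earlier results of these data known. All 10 genes were named, and of each other list up to 4 tested genes with the lowest adjusted p. FOS, JUN, the 3 genes nearest to PTGES, some markers and some genes with few or uncertain counts were named too. Alternatives were another scaling, no filter, DESeq2 1.42.0, each library left out, a replicate block and a correction for GC content, exon length and abundance (the GC correction).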

Additional observations from a re-analysis of the deposited data

How the results depend on the processing

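Unscaled library sizes gave 7862 higher and 2927 lower genes, against 5133 and 5132 with TMM, and the share of calls that were higher was 72.9% against 50.0%. Of the 10 genes 4 were lower in DESeq2, against 7 with edgeR, and 4 to 7 were lower when a single library was left out. PTGR2 ranged from −0.025 (without minus Dox replicate 2; −0.022 without plus Dox replicate 1) to 0.16 when a single library was left out, and turned to −0.49 after the GC correction and −0.49 with that and the replicate block. PLA2G4A turned to 0.049 with unscaled library sizes. The cause was not tested. Replicate numbers are shared by the groups, and whether they mark a common source is not known. The deviations of replicate 1 from its group mean correlated at 0.011 across genes between the groups. Counting noise enters this value, so it cannot decide the question. With the replicate block alone 5219 genes were higher and 5195 lower, and of the 10 genes again 2 were higher and 7 lower. PTGER4 rests on 40 to 76 counts a library, the fewest of the 10 genes; the part of depth in its lost calls was not tested.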

Other observations

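PACERR, a long non-coding RNA transcribed next to PTGS2 and named after its values were seen, had 21 and 11 counts in plus Dox, against 6 and 4 counts in minus Dox. Its log2 fold change was 1.70 ± 0.64 (SE), and edgeR's adjusted p was 0.0234, with no alternative fit given for it. PTGS2 was lower, but its call did not hold under 4 of the 11 alternatives. In minus Dox, replicate 1 was above replicate 2 by 26.6% for PTGS1, 19.0% for PTGS2, 16.3% for PLA2G4A, 15.4% for PTGER4, 14.9% for PTGES3 and 13.8% for PTGR2, and by 3.75% or less for PTGR1, HPGD and PTGES2, while for PTGES it was −0.303%, that is, below. In plus Dox the same difference was 21.7% for PTGS1, 13.6% for PTGR2, 8.64% for PTGS2, 2.83% for PLA2G4A, 1.22% for HPGD and 0.294% for PTGES3, and −10.4% for PTGES, −5.30% for PTGR1, −4.77% for PTGER4 and −0.069% for PTGES2.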
